A study of Mus musculus with 8 samples.

Results

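Regulators of multiciliated cells and members of the RFX family were chosen by name and followed in whole mouse lung: Foxj1, Rfx1, Rfx2, Rfx3, Rfx5, Myb, Trp73, Ccno, Foxn4 and E2f4. Of these, Rfx5 is known for work outside cilia and belongs by family only. Each of these 10 genes had exactly 1 probe set carrying its symbol alone, out of 19937 genes represented on the array, and all 10 were tested because no filter on dim genes was applied. The study compared lungs of mice with a stabilized form of beta-catenin (4 arrays) with lungs of mice in which beta-catenin was knocked out (4 arrays). All animals were 21 days old after birth, untreated and described as male, with 1 array per animal and replicates labelled as biological. Which Cre line was used, which exons were changed and which cells carried each allele is not stated in the labels. Lungs with unaltered beta-catenin were not analysed here. With no such lungs, it cannot be told which group moved away from an unmodified lung.

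Multiciliated cells line the conducting airways and carry motile cilia that move mucus out of the lung. Their fate is set when Notch signalling is low, through Gmnc and Mcidas, small nuclear proteins that bind the E2F partners E2f4 and E2f5 with Tfdp1 and turn on centriole amplification. Trp73, Myb and several RFX factors then act with Foxj1, the forkhead factor that switches on the genes of the motile axoneme. Ccno, a cyclin-like protein, takes part in the multiplication of centrioles. Beta-catenin, encoded by Ctnnb1, is the effector of canonical Wnt signalling and also part of adherens junctions.

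The promoter windows of 5 genes are shown: Ccno and Myb, which were lower in stabilized lungs, Rfx2 and Rfx3, the RFX factors best known in motile cilia, which did not pass the test, and Deup1, a centriole amplification gene that was lower. Each runs 5′ to 3′ from 250 bases before to 50 bases after the transcription start in RefSeq (build GRCm38.p6), and capitals mark matches to the RFX core GTTGCC, the forkhead motif GTAAACA or the MYB motif TAACNG on either strand.
Ccno, chr13:112987552-112987851, plus strand: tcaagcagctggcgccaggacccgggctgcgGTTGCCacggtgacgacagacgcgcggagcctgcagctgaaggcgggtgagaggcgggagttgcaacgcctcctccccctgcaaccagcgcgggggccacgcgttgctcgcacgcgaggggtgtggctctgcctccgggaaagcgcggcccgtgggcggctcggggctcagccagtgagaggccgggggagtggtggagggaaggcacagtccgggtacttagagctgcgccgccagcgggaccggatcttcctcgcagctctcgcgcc
Myb, chr10:21160935-21161234, minus strand: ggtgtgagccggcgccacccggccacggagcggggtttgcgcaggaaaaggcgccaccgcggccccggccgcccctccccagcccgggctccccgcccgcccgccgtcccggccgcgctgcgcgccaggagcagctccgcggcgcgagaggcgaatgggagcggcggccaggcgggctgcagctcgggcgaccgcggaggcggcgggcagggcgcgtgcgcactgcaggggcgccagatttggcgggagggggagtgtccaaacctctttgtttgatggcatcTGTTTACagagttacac
Rfx2, chr17:56830959-56831258, minus strand: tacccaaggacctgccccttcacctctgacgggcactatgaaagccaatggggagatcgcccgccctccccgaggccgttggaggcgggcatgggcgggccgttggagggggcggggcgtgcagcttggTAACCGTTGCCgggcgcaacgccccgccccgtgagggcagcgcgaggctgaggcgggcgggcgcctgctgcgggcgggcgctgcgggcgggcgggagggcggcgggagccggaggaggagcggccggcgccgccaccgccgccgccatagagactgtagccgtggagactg
Rfx3, chr19:28011117-28011416, minus strand: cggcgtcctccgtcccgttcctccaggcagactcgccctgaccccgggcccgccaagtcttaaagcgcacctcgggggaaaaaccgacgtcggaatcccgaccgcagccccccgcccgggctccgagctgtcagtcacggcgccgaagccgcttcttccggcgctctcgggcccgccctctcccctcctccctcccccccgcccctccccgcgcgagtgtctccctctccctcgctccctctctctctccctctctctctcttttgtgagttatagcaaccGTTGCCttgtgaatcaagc
Deup1, chr9:15627797-15628096, minus strand: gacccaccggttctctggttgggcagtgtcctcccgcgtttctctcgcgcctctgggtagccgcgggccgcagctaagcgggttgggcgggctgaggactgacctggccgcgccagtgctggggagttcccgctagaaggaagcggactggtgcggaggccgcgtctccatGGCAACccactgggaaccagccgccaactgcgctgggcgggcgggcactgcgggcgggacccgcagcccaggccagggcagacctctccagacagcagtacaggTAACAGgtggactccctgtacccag
In Rfx2 the capitals are a MYB match and an RFX core that share a base. Counted from the start, the Ccno core began at -219, and in Deup1 the RFX core was read on the opposite strand at -79. Where a gene had several windows, the one with most RFX cores was printed. Deup1 had a further window, chr9:15628257-15628556, with 0 RFX cores and 2 MYB matches.

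Windows were used for 8 members (all but Foxj1 and E2f4), 9 windows in all, and 5 of the 9 held the RFX core (55.6%), against 12.5% of all 32851 windows of the same length. Besides the windows shown, Rfx1 and 1 of the Trp73 windows held the RFX core, and Foxn4 and Rfx5 held the MYB motif. Among genes downstream of these factors, the core was in 15 of 35 windows of motile axoneme and ciliated cell genes (42.9%) in 8 of 16 windows of intraflagellar transport genes (50%) and in 6 of 21 windows of centriole genes (28.6%). The MYB motif was in 16 of the 35 axoneme windows (45.7%) and 10 of the 21 centriole windows (47.6%), against 23.3% of all windows. It was in 5 of the 16 intraflagellar transport windows (31.2%) and 3 of the 9 member windows (33.3%). The forkhead motif was in 2 of the axoneme windows (5.71%) and 1 of the member windows (11.1%), against 3.65% of all. It was in 0 of the intraflagellar transport and 0 of the centriole windows. The mean GC content was 67.2% in the member windows, 61% in the centriole, 58.9% in the intraflagellar transport and 54.4% in the axoneme windows, against 53.8% over all windows. The part of base composition in these shares was not tested. These are matches of letters and not measured binding.

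Before the genes are described, the arrays themselves were compared. Values are RMA-processed log2 expression, and arrays correlated over all genes at 0.993 to 0.996 within a group and 0.987 to 0.993 between groups. Array medians lay between 5.97 and 5.98 in stabilized and between 6.01 and 6.03 in knockout lungs, so every stabilized median was below every knockout median. Ctnnb1 transcript, at 11.14, 11.12, 11.02 and 10.99 in stabilized and 10.98, 10.99, 10.92 and 11.03 in knockout replicates 1 to 4, differed by 0.09 ± 0.06 (SE, n = 4 per group, limma adjusted p = 0.42). Since the altered exons are not given, that value does not check the genotype labels. Against the recorded sex, 4 arrays, 2 in each group, had a high Xist level (10.36 to 10.59, against 4.18 to 4.62 on the others). On those 4 arrays the Y-linked genes Kdm5d, Uty and Eif2s3y read 3.08 to 4.00, which shows what these genes read without a template. All 10 members read above that range on every array, the lowest being Trp73 at 5.24. Background can differ between probe sets, so this does not show that each member was detected.

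Of the 10 regulators, 3 were lower in stabilized lungs, 0 were higher and 7 did not pass the test (limma, p adjusted over all genes by Benjamini-Hochberg, threshold 0.05). Over all genes 4.96% were lower and 4.65% higher by the same rule, 9.62% in all. The 3 were Myb, Foxj1 and Ccno. All 10 differences lay below 0, which held for 52.2% of all genes, and their median was -0.21 on the log2 scale against -0.01 over all genes. The difference of Rfx5, at -0.02, was above 0 with each array centred on its median (0.02) and with the low-Xist arrays alone (0.06). In 6 of the 10 the 4 stabilized arrays all lay below the 4 knockout arrays, where 7.82% of all genes showed that pattern and 16.9% showed no overlap in either direction. Trp73 is among the 6 by a very small margin, with its highest stabilized array at 5.5734 and its lowest knockout array at 5.5739. In whole lung, fewer cells of a type and less RNA per cell cannot be told apart.

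**Figure D1:**
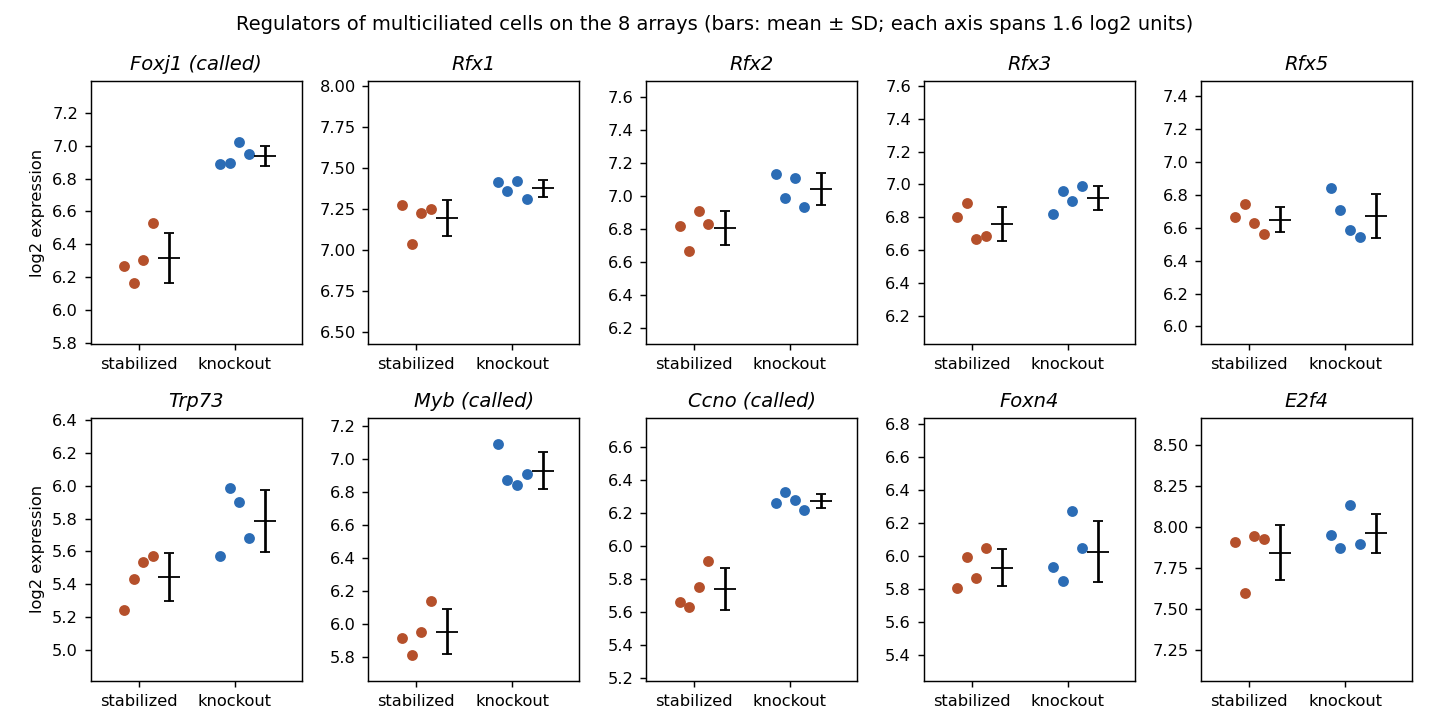
Log2 expression of the 10 regulators on each array (y axis, log2 units, each spanning the same range), with the 4 stabilized lungs left and the 4 knockout lungs right. Points are arrays and bars are mean ± SD. Foxj1, Myb and Ccno show a clear gap between the groups, while Rfx5, Foxn4, E2f4 and Rfx3 overlap.

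Foxj1, the forkhead factor of motile ciliogenesis, was lower in every stabilized lung. It read 6.27, 6.17, 6.31 and 6.53 (log2) on the stabilized arrays 1 to 4, against 6.89, 6.89, 7.02 and 6.95 in knockout replicates 1 to 4. The highest stabilized array, replicate 4, stayed below the lowest knockout array. The difference was -0.62 ± 0.08 (SE, n = 4 per group, limma adjusted p = 3.8e-04), which is 1.54-fold lower.

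Myb, a transcription factor that acts early in multiciliated cells and is also active in blood cell precursors, had the largest difference of the 10. Its log2 expression was 5.91, 5.81, 5.95 and 6.14 in stabilized lungs, against 7.10, 6.87, 6.85 and 6.91 in knockout lungs. The groups did not overlap, and the gap between them was wider than the range within either group. At -0.98 ± 0.08 (SE, n = 4 per group, limma adjusted p = 1.8e-05) it was 1.97-fold lower and ranked 54 by p among all genes.

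Ccno was lower as well, at 5.66, 5.63, 5.75 and 5.91 in stabilized lungs and 6.26, 6.33, 6.28 and 6.22 in knockout lungs. The 4 knockout lungs lay close together (SD 0.05), and the stabilized lungs spread more (SD 0.13) without reaching them. The difference was -0.54 ± 0.07 (SE, n = 4 per group, limma adjusted p = 5.6e-04), or 1.45-fold lower.

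These 3 calls remained with each array left out in turn, with a highest limma adjusted p of 0.0023 for Foxj1, 1.4e-04 for Myb and 0.0031 for Ccno. Among the 4 arrays with high Xist alone, 2 per group, the differences were -0.56 for Foxj1 (limma adjusted p = 0.0496), -0.95 for Myb (0.0082) and -0.49 for Ccno, whose call was lost (adjusted p = 0.062). Among the 4 arrays with low Xist they were -0.68, -1.01 and -0.58 (limma adjusted p = 0.016, 0.0033 and 0.035).

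Trp73, a relative of the tumour suppressor p53 that multiciliated cells need, lay just short of the threshold. It read 5.24, 5.43, 5.53 and 5.57 in stabilized lungs, against 5.57, 5.98, 5.90 and 5.68 in knockout lungs. The groups met at stabilized replicate 4 and knockout replicate 1, which were equal at this rounding. The difference was -0.34 ± 0.10 (SE, n = 4 per group, 95% interval -0.56 to -0.12, limma adjusted p = 0.054). It passed without knockout replicate 1 (-0.41, limma adjusted p = 0.027) and with limma's array weights (-0.40, adjusted p = 0.024), and its highest adjusted p with any single array left out was 0.16.

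The RFX factors bind the X-box of cilium gene promoters, and Rfx2 and Rfx3 are the members of the family best known in motile cilia. Rfx2 read 6.82, 6.67, 6.91 and 6.83 in stabilized lungs and 7.13, 6.99, 7.11 and 6.93 in knockout lungs. The groups did not overlap, but the gap was narrow, and the difference of -0.23 ± 0.07 (SE, 95% interval -0.39 to -0.07) had a limma adjusted p of 0.068. Rfx1, a broadly active family member, read 7.28, 7.03, 7.22 and 7.25 in stabilized lungs and 7.41, 7.36, 7.42 and 7.31 in knockout lungs. Its groups did not overlap either, with a difference of -0.18 ± 0.07 (SE, 95% interval -0.33 to -0.03, limma adjusted p = 0.13).

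Rfx3 read 6.80, 6.89, 6.67 and 6.69 in stabilized lungs, against 6.82, 6.96, 6.90 and 6.99 in knockout lungs. Stabilized replicate 2 lay above knockout replicate 1, so the groups overlapped, and the difference was -0.16 ± 0.07 (SE, 95% interval -0.31 to -0.0025, limma adjusted p = 0.20). Rfx5 is the family member that works outside cilia, in the complex that drives MHC class II genes. It read 6.67, 6.74, 6.63 and 6.56 in stabilized lungs and 6.84, 6.71, 6.59 and 6.54 in knockout lungs, which overlapped throughout. Its difference of -0.02 ± 0.08 (SE, limma adjusted p = 0.90) had a 95% interval of -0.19 to 0.15.

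Foxn4, a forkhead factor known from frog (Xenopus) multiciliated cells, read 5.80, 5.99, 5.87 and 6.05 in stabilized lungs and 5.93, 5.85, 6.27 and 6.05 in knockout lungs. The arrays were mixed, with a difference of -0.10 ± 0.09 (SE, 95% interval -0.30 to 0.11, limma adjusted p = 0.57). E2f4, which binds Mcidas and also acts in the cell cycle, read 7.91, 7.60, 7.94 and 7.93 in stabilized lungs and 7.95, 7.87, 8.13 and 7.89 in knockout lungs. Only stabilized replicate 2 stood low, and the difference was -0.12 ± 0.09 (SE, 95% interval -0.31 to 0.08, limma adjusted p = 0.46). The intervals of these genes leave room for modest differences in either direction, and a missed threshold does not show equal levels.

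An exact two-sided permutation test on each member alone gave p = 0.0286 for Foxj1, Myb, Ccno, Trp73, Rfx1 and Rfx2, the smallest p that 70 splits of 4 against 4 allow. It gave an exact p = 0.057 for Rfx3 and an exact p between 0.46 and 0.83 for Foxn4, E2f4 and Rfx5. These exact values are not adjusted for the number of genes.

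**Figure D2:**
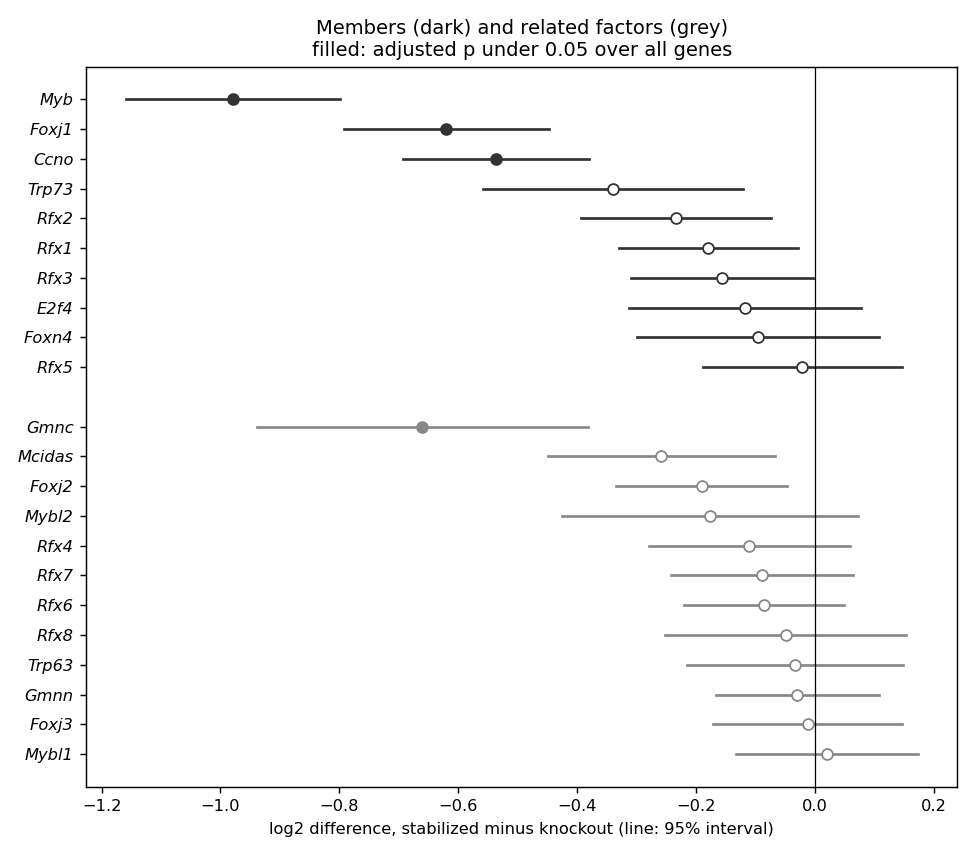
Log2 difference, stabilized minus knockout (x axis), with its 95% interval for the 10 regulators (dark) and 12 related factors (grey). Filled points passed the test over all genes: Myb at -0.98, Foxj1 at -0.62, Ccno at -0.54 and, among the related factors, Gmnc. The stabilized values of Gmnc lie in the range read for absent Y-linked transcripts, so the size of its difference is not resolved.

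Replicate 4 was the highest stabilized lung for 5 of the 10 members (Foxj1, Myb, Trp73, Ccno and Foxn4), as it was for 29.3% of all genes. Replicate 2 was the lowest for 6 (Foxj1, Rfx1, Rfx2, Myb, Ccno and E2f4), as it was for 38.9% of all genes, but was the highest for Rfx3 and Rfx5. Whether the members share these extremes more than other genes was not tested. Among knockout lungs the highest reading of Foxj1 was in replicate 3, that of Myb in replicate 1, and those of Ccno and Trp73 in replicate 2.

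Whether the members differed by unequal amounts was tested by subtracting the Foxj1 value of the same array from every gene and fitting limma again, which put 97.0% of all genes past the threshold. Relative to Foxj1, Myb fell by a further 0.36 ± 0.11 (difference -0.36, SE, 95% interval -0.58 to -0.14, limma adjusted p = 0.0026), an excess that 0.562% of all genes showed. Ccno differed from Foxj1 by 0.08 ± 0.10 (SE, 95% interval -0.13 to 0.29, limma adjusted p = 0.42), and Trp73 by 0.28 ± 0.11 (SE, 95% interval 0.05 to 0.51, limma adjusted p = 0.022). The Trp73 call was lost without stabilized replicate 2 or 3 or knockout replicate 1 or 4 and with array weights, and with the high-Xist arrays alone neither it nor Myb passed. The other 6 members lay above Foxj1 by 0.39 to 0.60, in a direction that 96.5% of all genes showed past the threshold. Exact permutation of the same values gave the smallest possible p, 0.0286, for Myb and for each of those 6, an exact p = 0.086 for Trp73 and an exact p = 0.11 for Ccno, unadjusted over the 9 comparisons. Because every gene carries the error of the Foxj1 measurement in this fit, its p-values are not independent and are likely too small.

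**Figure D3:**
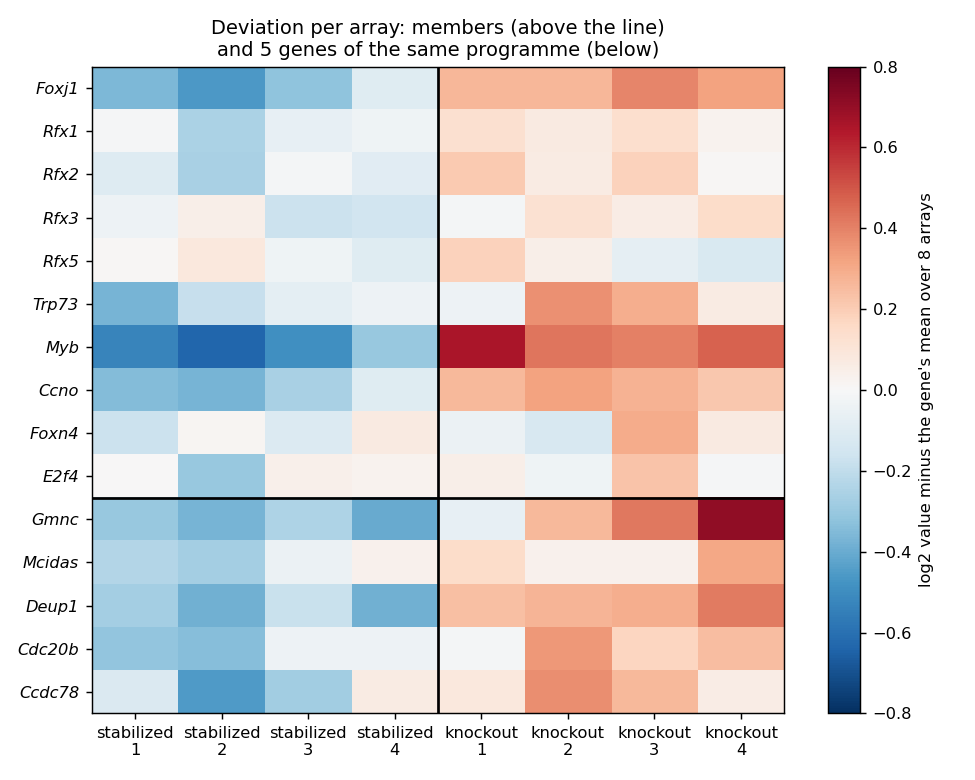
Each cell is 1 gene on 1 array (x axis, stabilized left, knockout right), coloured by its log2 value minus the gene's mean over the 8 arrays. Foxj1, Myb, Ccno and, below the line, Deup1 lie below their mean on all stabilized and above it on all knockout arrays. Rfx1 and Rfx2, which did not pass the test, show the same split with smaller deviations, while Rfx5, Foxn4 and E2f4 show no split by group.

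By distance between profiles (root mean square of the log2 difference over the 8 arrays, each gene centred on its own mean), the gene nearest to Foxj1 among all genes was Ccno, at 0.0706, followed by Nek11 at 0.0723 and Cbx7 at 0.0730. Nearest to Ccno were Tmem221 at 0.0525, Pik3cd at 0.0537 and Armh1 at 0.0549, with Foxj1 the seventh. Nearest to Myb were Ttc29 at 0.0876, Odf3b at 0.102 and Ldlrad1 at 0.103. Rfx1 and Rfx2 were the closest pair among the members, at 0.0555, and Rfx1 lay 0.0749 from E2f4, though none of these passed the test. The distance is not scaled to a gene's variation, so genes that vary little can lie close for that reason alone. It also includes the difference between the groups, so genes with a similar difference lie close without varying together within a group.

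Gmnc and Mcidas act upstream of the members, and only Gmnc passed the test. Gmnc, which starts the programme, read 3.64, 3.57, 3.69 and 3.54 in stabilized lungs and 3.87, 4.20, 4.36 and 4.65 in knockout lungs. All stabilized values and knockout replicate 1 lay within the range read for absent Y-linked transcripts. The fitted difference was -0.66 ± 0.13 (SE, limma adjusted p = 0.0061), and its size is not resolved at this level of signal. Mcidas, also called multicilin, read 6.01, 5.97, 6.19 and 6.27 in stabilized lungs and 6.38, 6.27, 6.27 and 6.55 in knockout lungs. The groups touched, and its difference of -0.26 ± 0.09 (SE, 95% interval -0.45 to -0.07) had a limma adjusted p of 0.088, or 0.0495 without stabilized replicate 4. Of the 12 upstream factors and relatives, 1 (Gmnc) was lower, 0 were higher and 11 did not pass, with a median of -0.09. Gmnc alone makes 8.33% of the list, against 4.96% lower over all genes. Gmnn, the geminin that binds both proteins, differed by -0.03 ± 0.06, the basal cell factor Trp63 by -0.03 ± 0.08 and the Myb relative Mybl1 by 0.02 ± 0.07 (SE, limma adjusted p of at least 0.82).

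Of 9 E2f4 partners and subunits of its repressor complex (DREAM), 0 passed the test, with a median of 0.01. E2f5, which can stand in for E2f4, differed by 0.16 ± 0.07 and its partner Tfdp1 by 0.07 ± 0.08 (SE, limma adjusted p = 0.17 and 0.67). At an unadjusted p under 0.05, 3 of the 9 differed, where 24.7% of all genes did.

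Ccno lies between Dhx29 and Mcidas among the protein-coding genes of chromosome 13 in RefSeq order, and Cdc20b follows Mcidas. Cdc20b, which takes part in centriole release, read 5.37, 5.35, 5.65 and 5.65 in stabilized lungs and 5.68, 6.04, 5.86 and 5.93 in knockout lungs, a difference of -0.37 ± 0.10 (SE, limma adjusted p = 0.030). Next to these genes, Dhx29, an RNA helicase, was higher by 0.28 ± 0.06 (SE, limma adjusted p = 0.016), and Gpx8 differed by 0.20 ± 0.06 (SE, limma adjusted p = 0.053). Gzma, the granzyme of cytotoxic lymphocytes that follows Gpx8, was lower, with a mean of 6.15 in stabilized and 7.14 in knockout lungs (limma adjusted p = 0.0061). On the far side of Dhx29, Plpp1 was higher by 0.72 ± 0.11 (SE, limma adjusted p = 0.0014), while Mtrex and Slc38a9 did not pass. These neighbours were picked with their values in view. The Cdc20b call was lost without stabilized replicate 1 or 2 or knockout replicate 2, 3 or 4, with a highest limma adjusted p of 0.095.

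Of 17 centriole amplification and basal body genes, 3 were lower (Deup1, Cdc20b and Ccdc78), 0 were higher and 14 did not pass, with a median of -0.03. The 3 make 17.6% of the list, against 4.96% lower over all genes. Deup1, the scaffold of the deuterosome on which multiciliated cells build extra centrioles, ran from 4.34 to 4.55 in stabilized lungs and from 4.97 to 5.14 in knockout lungs. Its groups were well apart, with a difference of -0.61 ± 0.07 (SE, limma adjusted p = 1.7e-04), and its change did not differ from that of Foxj1 beyond error (0.01 ± 0.11, SE, limma adjusted p = 0.91). Ccdc78, another deuterosome protein, differed by -0.39 ± 0.11 (SE, limma adjusted p = 0.041), and did not pass without stabilized replicate 1, 2 or 3 or knockout replicate 1, 2 or 3 (limma adjusted p up to 0.11). Plk4, the kinase that starts centriole duplication in any dividing cell, differed by 0.13 ± 0.07, and Cby1, a basal body protein that also binds beta-catenin, by 0.06 ± 0.08 (SE, limma adjusted p = 0.29 and 0.67).

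The axonemal genes that Foxj1 and the RFX factors are known to drive were lower almost as a block. Of 33 motile axoneme and ciliated cell genes, 28 were lower, 0 were higher and 5 did not pass, with a median of -0.64. The 28 make 84.8% of the list, against 4.96% lower over all genes. Dnah5, a dynein heavy chain, read 5.92, 5.80, 5.63 and 5.90 in stabilized lungs and 7.19, 7.05, 7.27 and 7.14 in knockout lungs. That is a difference of -1.35 ± 0.08 (SE, limma adjusted p = 1.6e-06), or 2.55-fold lower. Dnah6, another heavy chain, differed by -1.51 ± 0.10 (SE, limma adjusted p = 3.3e-06). Cfap43, a protein of the axoneme, fell by 1.10 ± 0.08 (SE, limma adjusted p = 5.7e-06). Relative to Foxj1, 10 of the 33 fell by more, 8 by less and 15 did not differ past the threshold. Over all genes in that fit, 0.562% lay below Foxj1 and 96.5% above it past the threshold.

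Of 20 intraflagellar transport genes, which cilia in general use and RFX factors regulate, 0 passed the limma test in either direction, with a median of -0.03. At an unadjusted p under 0.05, 5 of the 20 were lower (Ift22, Ift27, Ift57, Ift81 and Dync2h1, named after their values were seen), against 2402 of all 19937 genes, and 1 was higher (Ift122). In 3 of the 20 (Ift22, Ift81 and Dync2h1) the stabilized arrays all lay below the knockout arrays, where 7.82% of all genes showed that pattern. With array weights, with a mean of at least 6, or without stabilized replicate 2 or knockout replicate 1, 1 of the 20 passed as lower.

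**Figure D4:**
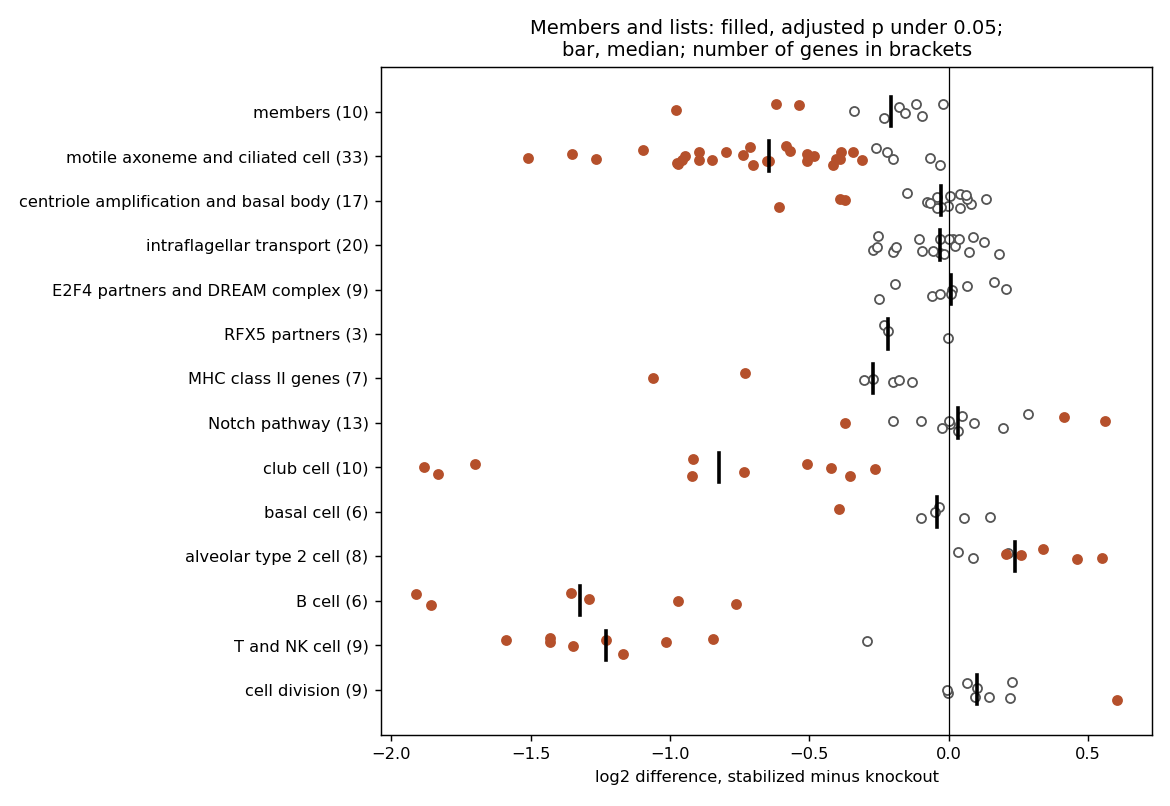
Log2 difference, stabilized minus knockout (x axis), of each gene in the 10 regulators and in 13 lists. Filled points passed the test over all genes and bars are medians. The axoneme list centres on -0.64 and the club cell list on -0.83, while intraflagellar transport and centriole genes centre on -0.03.

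Markers of other cells moved beside the members, and their counts stand against 4.96% lower and 4.65% higher over all genes. All 10 club cell markers, of the secretory cells that share the airway with multiciliated cells, were lower, with a median of -0.83, and their best-known product, Scgb1a1, differed by -0.51 ± 0.08 (SE, limma adjusted p = 0.0014). The log2 of their summed level ran from 14.11 to 14.26 in stabilized lungs and from 14.60 to 14.79 in knockout lungs. For the axoneme list the same sum ran from 11.06 to 11.18 in stabilized lungs and from 11.67 to 11.80 in knockout lungs. Basal cell markers, at 1 lower (Aqp3) of 6 and a median of -0.04, and neuroendocrine markers, at 0 of 5 and a median of 0.004, had medians near 0. The Aqp3 call was lost without stabilized replicate 1 or 2 or knockout replicate 1 or 3 (limma adjusted p up to 0.097). Of 8 alveolar type 2 markers 5 were higher (Sftpd, Lamp3, Abca3, Slc34a2 and Lyz2) and 0 lower, with a median of 0.24. Of these, Slc34a2 (limma adjusted p = 0.045) kept its call only without stabilized replicate 4 among the 8 fits with a single array removed, and Lyz2 passed narrowly (limma adjusted p = 0.046). In addition, of 6 alveolar type 1 markers 0 passed, with a median of 0.05. The part of these cell types in the members' differences was not tested.

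Because Myb is also active in lymphoid precursors, lymphocyte and cell division genes were set beside it. Their counts stand against 4.96% lower and 4.65% higher over all genes. All 6 B cell markers were lower, with a median of -1.32, and their summed level ran from 8.10 to 8.19 in stabilized lungs and from 9.27 to 9.74 in knockout lungs on the log2 scale. Of 9 T and NK cell markers 8 were lower, with a median of -1.23, and their sum ran from 9.17 to 9.58 in stabilized and from 10.12 to 11.03 in knockout lungs. Of 9 cell division genes 0 were lower and 1, the mitotic kinase Bub1, was higher (0.60 ± 0.17, SE, limma adjusted p = 0.042). Bub1 did not pass without stabilized replicate 1, 2 or 4 or knockout replicate 2, 3 or 4 (limma adjusted p up to 0.13). The part of lymphocytes in the Myb difference was not tested.

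Around Rfx5, the partners of its complex did not pass: Rfxank differed by -0.23 ± 0.07, Ciita, the class II transactivator, by -0.22 ± 0.11 (SE, limma adjusted p = 0.052 and 0.23), and the third, Rfxap, by -0.0017 (all 3 are given because they make up the list). Of 7 MHC class II genes, 2 were lower and 5 did not pass, with a median of -0.27. The 2 make 28.6% of the list, against 4.96% lower over all genes. The 2 were H2-Ob and H2-Oa, which encode the H2-O molecule of B cells, at -1.06 ± 0.10 and -0.73 ± 0.08 (SE, limma adjusted p = 5.0e-05 and 8.3e-05). Cd74, the invariant chain, differed by -0.27 ± 0.13 (SE, limma adjusted p = 0.21). The B cell markers above moved with H2-Ob and H2-Oa, and their part was not tested.

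Transcripts of the Notch pathway, whose signalling holds cells back from the multiciliated fate, were called in both directions. Of 13 genes 2 were higher, 1 was lower and 10 did not pass, with a median of 0.03. Over all genes 4.65% were higher and 4.96% lower. Signalling itself was not measured. Hey1, a Notch effector, read 8.23, 8.28, 8.37 and 8.02 in stabilized lungs and 7.59, 7.46, 7.96 and 7.64 in knockout lungs, a rise of 0.56 ± 0.11 (SE, limma adjusted p = 0.0052). The ligand Dll4 rose by 0.41 ± 0.09 and the receptor Notch2 fell by 0.37 ± 0.06 (SE, limma adjusted p = 0.013 and 0.0027). Which cells carried these differences is not resolved in whole tissue.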

How the data were processed

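Whole-lung RNA was measured on Affymetrix arrays. The submitters' processing notes name RMA and affy, without versions. The authors' deposited table holds a log2 value for each of 34760 probe sets on every array. RMA makes array distributions alike, which hides any change in total RNA, and compresses dim genes. Arrays carry no read depth, and 4 arrays per group limit the precision.

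Platform annotation gave 21640 probe sets 1 symbol, 1321 several and 11799 none, and only the first kind was named. Each of 19937 genes was represented by its brightest probe set. The groups were compared with limma (version 3.58.1, R 4.3.3) on all 8 arrays with no covariate, adjusted over all genes by Benjamini-Hochberg. Differences are stabilized minus knockout. Labels call the replicates biological. The script was tested on simulated data. List genes that had no match were not analysed here.

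The members and lists were chosen with earlier results of these data known, so lists are described by counts and medians without set tests. Named besides the members were up to 4 called genes per list with the smallest p, a fixed set of pathway genes, and the 3 nearest profiles of each called member. Alternatives covered scaling, dim-gene filters, prior, array weights, probe set choice, replicate block, Xist and single arrays left out. Those restricted to arrays of one Xist level, and the exact test relative to Foxj1, were chosen after seeing the data.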

Additional observations from a re-analysis of the deposited data

Results flagged for a closer look

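In 6 of 106 groups of 4 arrays, over the 53 named genes, 1 array lay apart from the other 3 by most of the group's range (Dixon's test at the 95% level). Chance flags about 1 in 20 such groups. The only member among them was E2f4, where stabilized replicate 2 read 7.60 and the others 7.91 to 7.94, and E2f4 did not pass the test with or without that array. Gmnn read 4.84 in stabilized replicate 4 against 4.71 to 4.72 in the other stabilized lungs. In knockout replicate 4, Ciita read 6.53 against 6.87 to 6.94 and Cby1 read 7.43 against 7.25 to 7.26 in the other knockout lungs. Lymphocyte markers were low in 1 stabilized lung each: Cd79a at 5.07 in replicate 4 against 5.48 to 5.54, and Klrd1 at 4.60 in replicate 1 against 4.81 to 4.84.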

How the results depend on the processing

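Over 76 results with up to 20 alternatives each, no called difference changed direction. Between 3 and 4 of the 10 members were lower under every alternative that used both Xist levels and 0 were higher, and Myb and Foxj1 passed in each. The fourth was Trp73 with a mean of at least 5, array weights, the replicate block or without knockout replicate 1, and Rfx2 with a mean of at least 6. With the high-Xist arrays alone 2 members were lower, and with the low-Xist arrays 3. Over all genes, calls numbered 1917 (928 higher and 989 lower). With each array left out they ranged from 1216 (without stabilized replicate 1) to 1839, with 503 to 882 higher, and without knockout replicate 3 they were 1235, of which 519 were higher. Centring each array on its median gave 1495 higher calls, 64.4% of all calls against 48.4%, while the median of all genes moved to 0.03. With high Xist alone 670 genes were called (218 higher, 452 lower) and with low Xist alone 354 (122 higher, 232 lower), fits with fewer arrays. Gmnc was left out by the mean filters and lost its call with high Xist alone (adjusted p = 0.14). Of the axoneme list 12 were lower with a mean of at least 6, where fewer genes are tested, and 17 to 18 within either Xist level. With replicate number as a block, 1828 genes were called. The labels do not pair the animals, and deviations of same-numbered arrays correlated at -0.01 to 0.08, so the numbers were not treated as pairs.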

Other observations

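Probe sets annotated to precursors of the microRNAs known from multiciliated cells, chosen after their values were seen, did not pass the test. Mir449a, which lies in Cdc20b, read 5.17 ± 0.13 in stabilized lungs and 5.17 ± 0.15 in knockout lungs (SD, n = 4), and Mir449c read 5.15 ± 0.07 in stabilized lungs and 5.23 ± 0.04 in knockout lungs (SD, n = 4, limma adjusted p = 0.41). Mir34b differed by 0.03 ± 0.07 and Mir34c by 0.07 ± 0.08 (SE, limma adjusted p of at least 0.60). An array for long transcripts may not read mature microRNAs.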
